A study of Mus musculus with 6 samples.

Results

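The locus of Nanog and Dppa3 lies on mouse chromosome 6 (build mm10) and was described here in Hi-C maps of embryonic stem cells. It was represented by 5 genes, Apobec1, Gdf3, Dppa3, Nanog and Slc2a3, of 20661 protein-coding genes placed on the autosomes. They were chosen as neighbours in a stretch where an earlier look at the same maps had found a large difference between the groups. Every difference between groups at these genes is therefore a description, with no test. The 50 kb bins of the gene starts were followed through all bin pairs and insulation scores from base 121600001 to base 123800000. The tested cells, called Del8, were labelled GFP-CTCF-Del8 and carry a CTCF protein without zinc finger 8 (3 libraries). The cells they were set against were labelled wild type (WT, 3 libraries). Both were embryonic stem cells of strain 129, and the maps were made by in-situ Hi-C with the restriction enzyme MboI. The series' design text speaks of GFP-CTCF where the labels say wild type, so whether the WT cells also carry the GFP tag is not settled. What drives the tagged protein, how many clones there were and whether unmodified CTCF remained is not stated in these sources. The design text calls the replicates biological. Hi-C counts hold no RNA, so neither the expression of these genes nor the identity of the cells was measured.

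Hi-C counts how often 2 pieces of DNA are joined by ligation inside fixed nuclei, and so how often they lie close together. CTCF binds DNA through its zinc fingers and halts cohesin, which extrudes chromatin loops. CTCF sites often form the borders of domains. Nanog codes for a homeodomain transcription factor of the core pluripotency network. Dppa3, also called Stella, codes for a maternal factor that protects DNA methylation in the early embryo and is expressed in naive stem cells. Gdf3 codes for a TGF-beta family ligand related to Nodal, Slc2a3 for the glucose transporter GLUT3, and Apobec1 for a cytidine deaminase that edits RNA. Nanog, Dppa3, Gdf3 and Slc2a3 are known as neighbours that are expressed together in pluripotent cells.

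The 5 genes fell into 3 bins. Apobec1 (chromosome 6, 122577792 to 122603024) starts by its lower coordinate in the bin from 122550001 to 122600000. That bin is called the Apobec1 bin. Gdf3 (122605403 to 122610087) and Dppa3 (122626424 to 122630271) lie whole within the next bin, 122600001 to 122650000, the Dppa3 bin. Nanog (122707489 to 122714633) and the lower end of Slc2a3 (122727809 to 122802363) lie in the bin from 122700001 to 122750000, the Nanog bin. The annotated body of Slc2a3 goes on into the bin from 122800001. The lower ends of Dppa3 and Nanog are 81.1 kb apart, with 1 bin between theirs. At 50 kb the maps cannot tell genes of the same bin apart. RefSeq promoter sequences were at hand for Nanog and Apobec1, 2 of the 5 genes. Apobec1 is on the minus strand, and its transcript start at 122602444 falls in the Dppa3 bin and not in the bin of its lower coordinate.

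Shown are the 250 bases before the transcript starts of Nanog and Apobec1, the only member promoters at hand, 5′ to 3′ on the gene's strand, to ask which of a few known motifs they hold. The Apobec1 window lies in the Dppa3 bin. They come from RefSeq (GRCm38.p6, the same build), at chr6:122707239-122707488 (plus strand) and chr6:122602445-122602694 (minus strand). Capitals mark the only letters that matched any of 5 motifs searched on both strands.
Nanog: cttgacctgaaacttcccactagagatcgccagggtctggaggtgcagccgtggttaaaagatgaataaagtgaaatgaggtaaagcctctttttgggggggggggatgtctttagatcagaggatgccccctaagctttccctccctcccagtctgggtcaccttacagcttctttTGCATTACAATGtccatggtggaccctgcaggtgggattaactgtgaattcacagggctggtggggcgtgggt
Apobec1: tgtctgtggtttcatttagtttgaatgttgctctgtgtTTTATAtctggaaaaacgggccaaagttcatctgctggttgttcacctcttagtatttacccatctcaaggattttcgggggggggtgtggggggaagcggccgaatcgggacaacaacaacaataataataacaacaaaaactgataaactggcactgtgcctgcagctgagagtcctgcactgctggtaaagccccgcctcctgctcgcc

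The capitals before Nanog are the composite Oct-Sox element, which Oct4 and Sox2 are known to bind together. It begins at position -73 from the transcript start and is read on the other strand. Of 32851 RefSeq promoters of this length, 9 (0.0274%) held the element, among them both Nanog entries, which overlap. The capitals before Apobec1 are the letters of a TATA box (TATAAA) on the other strand, which 12.4% of promoters held. The core of the CTCF motif was found in 2.07% of promoters, and its letters were in neither of the 2 windows. The octamer (ATGCAAAT, in 1.60% of promoters, partly overlapping the composite element) and the GC box (GGGCGG, in 32.7%) were not in them either. A match or its absence is a description of these letters only.

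The libraries held 66266759, 46925260 and 38088173 contacts in Del8 replicates 1 to 3, and 24038030, 24512722 and 36233407 in WT replicates 1 to 3. They were not equally complete. In the deposited tables whole rows were missing, that is, every contact of a bin with itself and with bins of higher coordinate, while its contacts with lower bins remained. The exception was 1 bin of WT replicate 3 that had no entry with itself but some with higher bins. Of 47875 autosomal bins, 1.78%, 4.37% and 14.5% had no row in Del8 replicates 1 to 3, against 39.7%, 39.8% and 5.06% in WT replicates 1 to 3. WT replicates 1 and 2 thus stood apart from the other 4 libraries. In the contacts of usable bins WT replicate 1 also stood apart from its own group, at a chi-square per degree of freedom of 3.12 and 3.36 with WT replicates 2 and 3, which had 1.61 between them. Only bins with a row in all 6 libraries were used, which were 27673 bins (57.8%) holding 81.0% of protein-coding gene starts. Of the 44 bins of the locus 24 were usable. They included all 3 member bins and an unbroken run of 15 bins, bases 122250001 to 123000000, with the Dppa3 bin in its middle. A tested bin pair of the locus held on average 63.9, 44.4 and 39.6 contacts in the Del8 libraries and 28.4, 30.0 and 33.6 in the WT libraries. The part of depth and of missing rows in the results was not tested. Del8 replicate 3 and WT replicate 3 were of similar depth. Both values are given in what follows where single libraries are listed, but not where only means and SD are.

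Contact across the member bins was higher in Del8 cells. The measure was the insulation score, log2 of the mean balanced contact between the 500 kb below and the 500 kb above a bin, over the mean of the chromosome. A low score marks a border between neighbouring stretches. At the Dppa3 bin the score was -0.0062, 0.06 and -0.0071 in Del8 replicates 1 to 3, against -0.72, -0.58 and -0.48 in WT replicates 1 to 3. All WT libraries lay far below 0 and all Del8 libraries close to it. The difference was 0.61 (limma, SE 0.05), a 1.52-fold contact across the bin on this relative scale.

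At the Apobec1 bin the score was -0.03, 0.03 and 0.02 in Del8 replicates 1 to 3, against -0.64, -0.48 and -0.46 in WT replicates 1 to 3. The difference was 0.53 (SE 0.04), or 1.45-fold. The groups did not overlap here either, and the 500 kb square is nearly that of the Dppa3 bin. At the Nanog bin, which also holds the lower end of Slc2a3, the score was 0.09, 0.14 and 0.0033 in Del8 replicates 1 to 3, against -0.17, -0.32 and -0.17 in WT replicates 1 to 3. The difference there was 0.30 (SE 0.04), or 1.23-fold, and the groups again did not overlap. With a 250 kb square the difference at the Nanog bin was 0.12, the groups overlapped and limma no longer called it. The bin between Dppa3 and Nanog, with no protein-coding gene start, had 0.11 ± 0.03 in Del8 and -0.41 ± 0.07 in WT (SD, n = 3 each).

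With the 500 kb square the bins of genes next to the members differed in the same direction. The bin of Mfap5, which codes for a protein of elastic microfibrils, had 0.23 ± 0.03 in Del8 and -0.22 ± 0.09 in WT. The bin of Foxj2, a forkhead factor, and C3ar1, the receptor for complement fragment C3a, had -0.13 ± 0.08 in Del8 and -0.41 ± 0.06 in WT. At Rimklb, which codes for an enzyme that makes N-acetylaspartylglutamate, the means were 0.40 ± 0.03 in Del8 and 0.23 ± 0.04 in WT (SD, n = 3 each). In all 11 scored bins of the locus every Del8 library lay above every WT library, and all 11 were called higher by limma at an adjusted p under 0.05. Of 21874 bins scored on the autosomes, 33.0% were called higher and 31.3% lower in Del8, and every Del8 library lay above every WT library in 34.4% and below in 33.4%. The bins share most of their squares and the locus was chosen from these scores, so nothing is read from the 11. By size, the difference at the Dppa3 bin was the 65th highest of the 21874. With a 250 kb square the Mfap5 bin still differed by 0.41 without overlap. The Foxj2 and C3ar1 bin differed by 0.14 and the Rimklb bin by 0.08, and there the groups overlapped. The bin of M6pr and Phc1, 300 kb below the Dppa3 bin, and the bin above it differed by -0.28 and -0.15. In both, every Del8 library lay below every WT library. Limma called both lower, as it did 21.5% of all bins with this square.

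**Figure D1:**
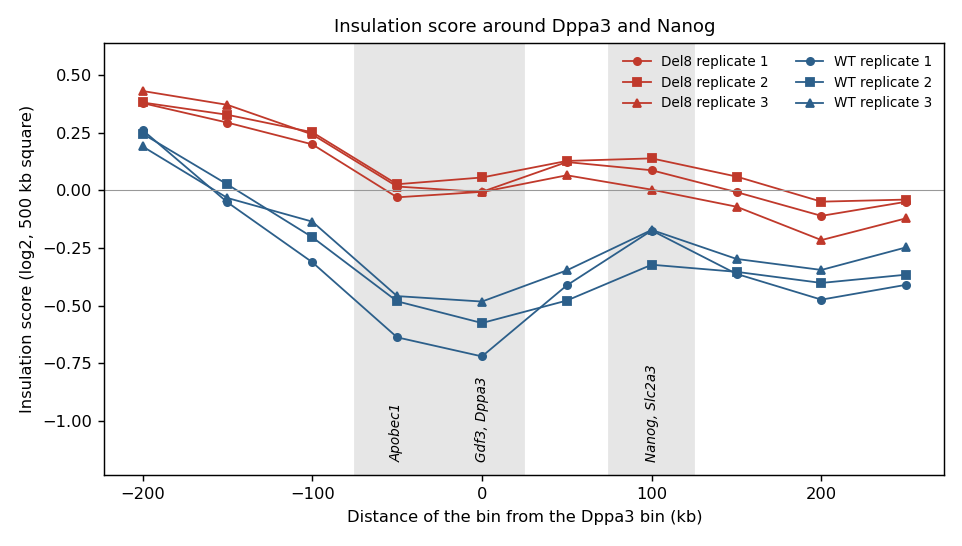
Insulation score (log2, vertical axis) of 10 neighbouring bins against their distance from the Dppa3 bin in kb, with 1 line per library, Del8 in red and WT in blue. Grey bands mark the member bins; the lines of the groups do not cross, and they are furthest apart at the Dppa3 bin (-0.0062 to 0.06 in Del8, -0.72 to -0.48 in WT).

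By this score the profile also differed in shape. In each WT library the Dppa3 bin was the lowest of the 10 neighbouring scored bins and a local minimum, with a prominence of 0.55, 0.25 and 0.31 in replicates 1 to 3. In each Del8 library the lowest was instead the bin of Foxj2 and C3ar1, 200 kb above. Which bin is lowest depended on the score. With a 250 kb square it was the Necap1 bin in each Del8 library and the Dppa3 bin in each WT library, and by the unbalanced score described later it was the Necap1 bin in all 6 libraries. With the 500 kb square no Del8 profile had a minimum with a prominence of 0.2 or more among these 10 bins. The scored run ended at the Necap1 bin, next to that of Foxj2 and C3ar1, which limited the prominence that could be measured there. With the 250 kb square prominence was not taken. By that score the mean rose from the Necap1 bin to that of Clec4a3 and Clec4a4 in both groups. It went from -0.36 to 0.50 in Del8 and from -0.48 to 0.64 in WT. Measured against the mean of the scores 150 kb to either side, the Dppa3 bin lay at -0.15, -0.14 and -0.16 in Del8 replicates 1 to 3 and at -0.51, -0.41 and -0.32 in WT replicates 1 to 3. In Del8 replicate 3 the Dppa3 bin was nevertheless above the bin 150 kb higher up (-0.07). In Del8 replicates 1 and 2 it was almost level with that bin (-0.0075 and 0.06). The negative Del8 values came from the other side, where the scores were 0.29, 0.33 and 0.37. On the map summed over all 6 libraries, none of the 1015 boundaries with that prominence lay in the locus. Raw counts were summed, so the deeper Del8 libraries weighed more in that map. Between usable bins of the locus they held 10521, 7373 and 6546 contacts, against 4566, 4799 and 5460 in WT replicates 1 to 3.

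The contacts behind the score were divided into those within and those between the 500 kb flanks of the Dppa3 bin, as balanced contact over the chromosome's mean for that distance (observed over expected). Between the flanks the value was 0.856, 0.895 and 0.850 in Del8 replicates 1 to 3, against 0.535, 0.559 and 0.596 in WT replicates 1 to 3. The means were 0.867 ± 0.025 in Del8 and 0.563 ± 0.031 in WT (SD, n = 3 each), a ratio of 1.54. All 3 Del8 libraries lay above all 3 WT libraries. The libraries of similar depth, Del8 replicate 3 (0.850) and WT replicate 3 (0.596), were the closest of the 2 groups. Within the lower flank the means were 1.118 ± 0.021 in Del8 and 1.124 ± 0.037 in WT. Within the upper flank they were 1.100 ± 0.019 in Del8 and 1.116 ± 0.023 in WT. Within both 500 kb flanks the groups overlapped and the differences were smaller than the spread between replicates. This depended on the width. Within 250 kb flanks the means were 1.270 ± 0.028 in Del8 and 1.175 ± 0.016 in WT for the lower flank, and 1.140 ± 0.045 in Del8 and 1.243 ± 0.056 in WT for the upper flank (SD, n = 3 each). There every Del8 library lay above every WT library in the lower flank and below in the upper flank.

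**Figure D2:**
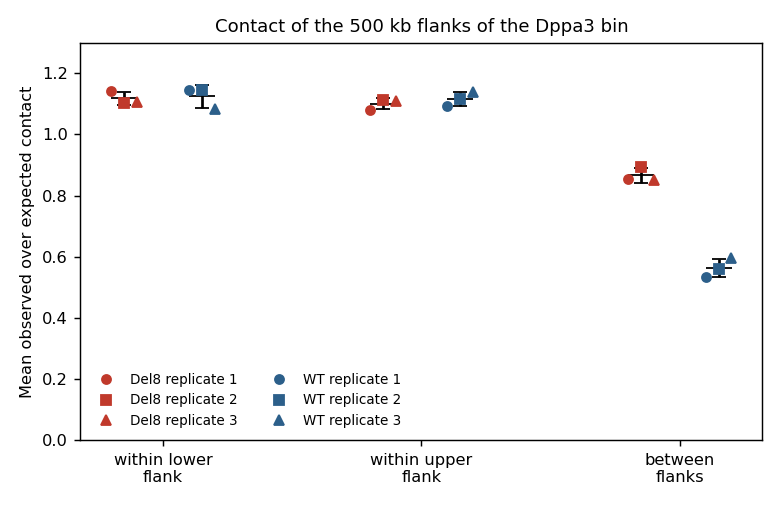
Mean observed over expected contact (vertical axis, from 0) within the lower flank, within the upper flank and between the flanks of the Dppa3 bin; each point is a library, the dash and bars are mean and SD of 3 libraries. The Del8 and WT points overlap within each flank, and between the flanks all Del8 points (0.850 to 0.895) lie above all WT points (0.535 to 0.596).

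The same division was seen pair by pair in the run of 15 bins. Of 49 pairs with a bin on either side of the Dppa3 bin, 45 had a higher mean observed over expected contact in Del8, and the median log2 ratio was 0.69. Every Del8 library lay above every WT library in 19 of them and below in 0. Among autosomal pairs up to 700 kb apart the groups were apart in this way in 10.1% (Del8 above) and 8.18% (Del8 below). Of 21 pairs within the lower side the median log2 ratio was 0.05, and of 21 within the upper side it was also 0.05. Of the 14 pairs that hold the Dppa3 bin itself it was 0.06. Del8 libraries were wholly above in 4, 2 and 3 of these pairs and wholly below in 1, 4 and 1, for the lower side, the upper side and the Dppa3 bin. Over the whole locus 130 pairs joined opposite sides, with Del8 wholly above in 37 and wholly below in 0. Among all autosomal pairs no farther apart than the locus is long these shares were 8.28% and 6.16%. The pairs share bins and libraries and were chosen with the locus, so the counts are a description.

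**Figure D3:**
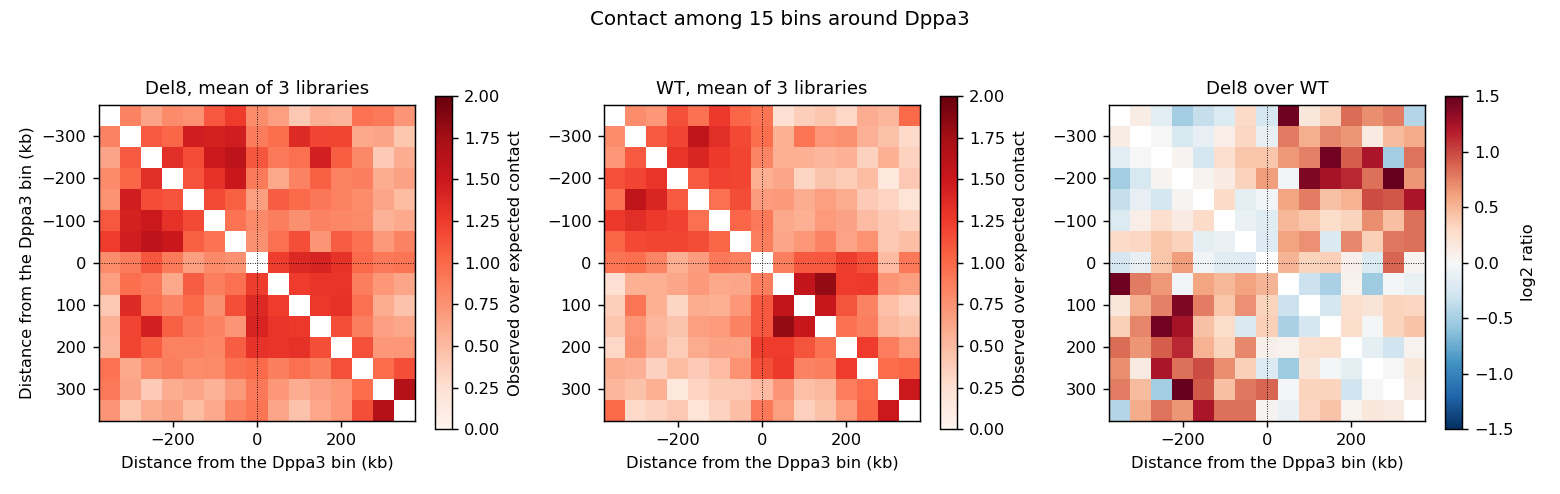
Observed over expected contact among the 15 bins around Dppa3, as the mean of 3 Del8 libraries (left), the mean of 3 WT libraries (middle) and the log2 ratio of these means (right), with both axes in kb from the Dppa3 bin and the dotted lines at that bin. In the WT map the median was 0.56 for pairs joining both sides, 1.17 within the lower side and 0.95 within the upper side. In the Del8 map these medians were 0.85, 1.16 and 0.96. In the ratio map the off-diagonal corners, which join both sides, are mostly red (45 of 49 pairs above 0).

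Among the 3 pairs of member bins the values differed in direction. The Apobec1 and Nanog bins, on opposite sides of the Dppa3 bin and 150 kb apart, shared 90, 68 and 55 contacts in Del8 replicates 1 to 3 and 30, 26 and 30 in WT replicates 1 to 3. Their observed over expected contact was 1.119, 1.178 and 1.133 in Del8, against 0.763, 0.733 and 0.640 in WT. This was the largest difference among the 3 pairs of member bins, with no overlap (edgeR, log2 0.65, SE 0.21).

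The Dppa3 and Nanog bins, 100 kb apart, shared 138, 84 and 81 contacts in Del8 replicates 1 to 3 and 53, 48 and 68 in WT replicates 1 to 3. Their observed over expected contact was 1.471, 1.209 and 1.433 in Del8 and 1.064, 1.065 and 1.141 in WT. The groups did not overlap on this balanced scale, while edgeR on unbalanced counts gave a log2 of 0.19 (SE 0.16). The neighbouring Apobec1 and Dppa3 bins shared 160, 130 and 80 contacts in Del8 replicates 1 to 3 and 82, 95 and 98 in WT replicates 1 to 3. Their observed over expected contact was 0.773, 0.847 and 0.644 in Del8 and 0.818, 0.940 and 0.824 in WT, and the groups overlapped. None of the 3 pairs was called by edgeR over all pairs tested.

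Seen from the Nanog bin, the mean contact differed with the lower side. With the 7 bins below Dppa3 its mean observed over expected contact was 0.890, 0.906 and 0.983 in Del8 replicates 1 to 3, from 296, 220 and 199 contacts. It was 0.586, 0.620 and 0.533 in WT replicates 1 to 3, from 91, 98 and 107 contacts. The ratio of the group means was 1.60 with no overlap. With the 6 bins above Dppa3 other than its own, the means were 0.972 ± 0.024 in Del8 and 0.976 ± 0.036 in WT (SD, n = 3 each), and the groups overlapped, with every Del8 library above at 1 of these bins and below at 2. All 7 lower bins had a higher mean in Del8, and in 4 of them, among them the Rimklb and Apobec1 bins, the groups did not overlap. With the bin of Phc1, a Polycomb protein, and M6pr, the small mannose 6-phosphate receptor, WT replicate 1 (1.37) reached the Del8 libraries (1.40, 1.36 and 1.34).

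The Apobec1 bin differed with both sides. With the 7 bins above Dppa3 it had 1.011, 0.860 and 0.874 in Del8 replicates 1 to 3, against 0.535, 0.680 and 0.699 in WT replicates 1 to 3, a ratio of 1.43. With the 6 bins on its own side the means were 1.299 ± 0.071 in Del8 and 1.124 ± 0.054 in WT (SD, n = 3 each), a ratio of 1.16. Neither comparison overlapped, and the farther side had the higher ratio. For the Dppa3 bin the lower side gave 0.842 ± 0.064 in Del8 and 0.825 ± 0.042 in WT, with overlap. Its upper side gave 1.164 ± 0.113 in Del8 and 0.977 ± 0.075 in WT (SD, n = 3 each), with no overlap. That gap was narrow, between 1.068 in Del8 replicate 3 and 1.061 in WT replicate 1. By single partner bins, the Del8 mean was higher at 6 of the 7 upper bins and at 2 of the 7 lower bins. At 2 upper bins all Del8 libraries were above all WT libraries, and at 0 below. On the lower side they were above at 1 bin, that of Rimklb, and below at 1, that of Mfap5. The excess of the Dppa3 bin was thus seen more on the side of Nanog, but not at every bin there. Contact within the Dppa3 bin, over the median usable bin, was 1.03, 1.04 and 1.03 in Del8 replicates 1 to 3 and 1.18, 1.14 and 1.29 in WT replicates 1 to 3. It was lower in every Del8 library than in every WT library, while the groups overlapped within the Apobec1 and Nanog bins. The share of all bins that part in this way was not counted, so nothing is read from it.

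**Figure D4:**
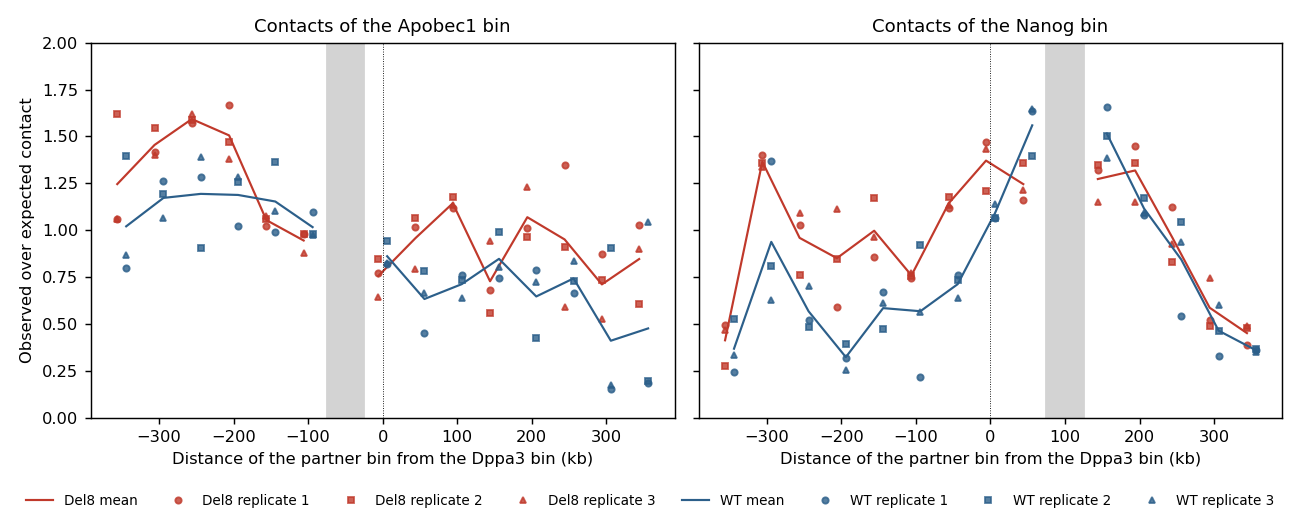
Observed over expected contact (vertical axis, from 0) of the Apobec1 bin (left) and the Nanog bin (right) with each other bin of the run, against the partner's distance from the Dppa3 bin in kb; points are libraries, lines are means of 3 libraries, and the grey band is the bin itself. From the Nanog bin, the Del8 line (red) runs above the WT line (blue) at all 7 bins below Dppa3, whereas at the bins on either side of Nanog the Del8 points are lower (1.15 to 1.36, against 1.39 to 1.65 in WT).

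The bin between Dppa3 and Nanog differed in both directions, depending on the partner. With the Nanog bin it had 1.161, 1.359 and 1.216 in Del8 replicates 1 to 3, against 1.636, 1.395 and 1.645 in WT replicates 1 to 3. With the bin above Nanog it had 1.436, 1.236 and 1.202 in Del8, against 2.118, 1.495 and 1.824 in WT. These are short-range contacts on the Nanog side, and every Del8 library lay below every WT library. With the Dppa3 bin it was the other way round, 1.23, 1.14 and 1.35 in Del8 and 0.792, 0.921 and 0.908 in WT.

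Of 276 bin pairs of the locus, 148 had a mean count of 10 or more and entered the fit over all 336730 pairs of the autosomes. By edgeR's quasi-likelihood test at an adjusted p under 0.05, 2 of them were called higher in Del8 and 2 lower. Over all pairs 0.953% were called higher and 0.916% lower, and nothing is read from the locus beside them. With offsets that also hold the balancing factors, the split over all pairs was 4503 higher and 1779 lower, against 3210 and 3085, and the locus had 5 higher and 0 lower. Both higher pairs joined opposite sides. The Rimklb and Nanog bins, 300 kb apart, shared 24, 25 and 30 contacts in Del8 replicates 1 to 3 and 6, 7 and 6 in WT replicates 1 to 3 (log2 1.35, SE 0.39). Bins 400 kb apart without gene starts, 1 below Rimklb and 1 above Nanog, shared 53, 42 and 20 contacts in Del8 replicates 1 to 3 and 5, 7 and 15 in WT replicates 1 to 3 (log2 1.32, SE 0.33).

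Both lower pairs held the bin between Dppa3 and Nanog. With the Nanog bin it shared 189, 159 and 126 contacts in Del8 replicates 1 to 3 and 146, 111 and 149 in WT replicates 1 to 3 (log2 -0.42, SE 0.12). With the bin above Nanog the log2 difference was -0.53 (SE 0.15). The calls changed when single libraries were left out. Higher pairs numbered 0 without WT replicate 1 or Del8 replicate 2, and 1 without WT replicate 2, Del8 replicate 1 or Del8 replicate 3. Lower pairs numbered 3 without WT replicate 2, and 0 without WT replicate 1, WT replicate 3 or any 1 of the Del8 replicates. Over these 6 fits the log2 difference ranged from 1.09 to 1.60 for the Rimklb and Nanog bins and from 1.09 to 1.77 for the other higher pair. It ranged from -0.53 to -0.34 and from -0.62 to -0.43 for the lower pairs, so no direction changed. Without WT replicates 1 and 2 together, or with DESeq2, the locus had 0 calls. At an unadjusted p under 0.05, edgeR then had 13 higher and 7 lower pairs, and DESeq2, on all libraries, 9 and 7. In counts simulated on the same pairs with an assumed dispersion, 100 pairs were changed 1.5-fold and 100 were changed 2-fold. Of these, 1% and 27% were called. Far fewer pairs were changed there than were called in the data, so these shares do not carry over to the real fit.

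Farther from the members most differences ran the other way by 1 added score. To reach bins whose own row was missing, an unbalanced score was taken from all pairs whose lower bin had a row in every library, a choice made after the data were seen. It covered 31 bins of the locus. In the 10 bins from Rimklb to Necap1, which codes for an endocytic adaptor-binding protein, the median difference was 0.40, and in 9 every Del8 library lay above every WT library. In the 12 bins below them, which hold A2m and the murinoglobulin genes Mug1 and Mug2 (inhibitors of proteinases in plasma), the median was -0.24, and every Del8 library lay below every WT library in 10. In the 8 bins above them, with Clec4 genes for C-type lectins of immune cells and the vomeronasal receptor gene Vmn2r19, it was -0.18, with every Del8 library below in 6. The Clec4a1 bin, between these stretches, differed by 0.02. Over all 28711 bins with this score every Del8 library lay above every WT library in 33.0% and below in 30.9%. By limma 10 locus bins were called higher and 15 lower, against 29.1% and 27.7% of all bins. These bins overlap in their squares, and nothing is read from their counts. At the bin of Mug2 the unbalanced score was 0.06, 0.03 and 0.20 in Del8 replicates 1 to 3 and 0.55, 0.41 and 0.45 in WT replicates 1 to 3. The balanced score with a 1 Mb square, which could be had at 8 bins, all below the Apobec1 bin, gave lower values in Del8 at Mug1 (0.11 ± 0.04 in Del8 and 0.22 ± 0.01 in WT, SD, n = 3 each). The A2m bin at the lower end of the locus was an exception. Its balanced score was higher in Del8 by 0.15 with the 500 kb square, 0.21 with the 250 kb square and 0.04 with the 1 Mb square, and its unbalanced score by 0.03 with overlap.

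**Figure D5:**
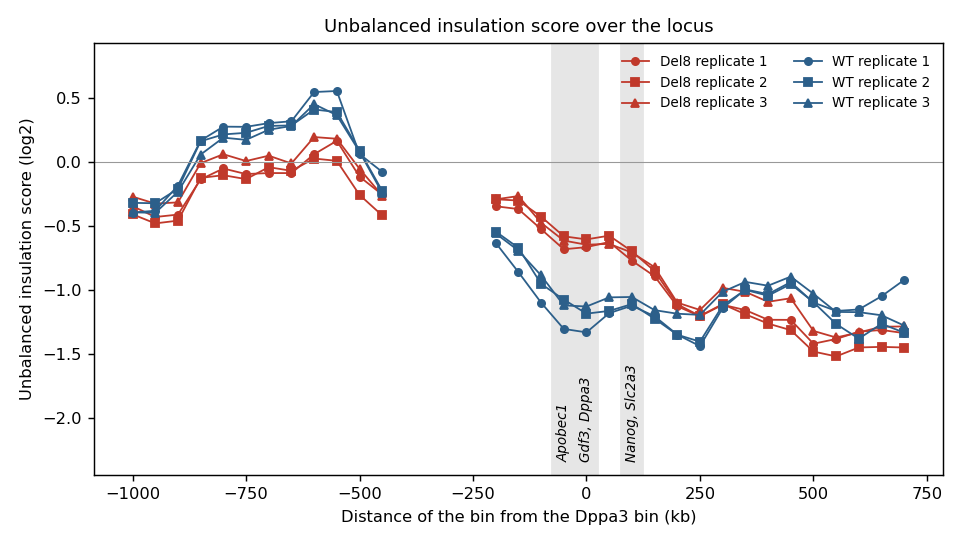
Unbalanced insulation score (log2, vertical axis) of 31 bins of the locus against their distance from the Dppa3 bin in kb, with 1 line per library, Del8 in red and WT in blue; the gap holds bins without a score. The Del8 lines lie above the WT lines around the member bins (grey) and below them at 10 of the 12 bins at the left and 6 of the last 8 at the right.

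Bins elsewhere on the autosomes were ranked by how closely their 6 scores matched those of a member bin, as the root mean square difference over the 6 libraries, among 9236 bins with a protein-coding gene start. Closest to the Dppa3 bin was a bin on chromosome 17 from 35800001 to 35850000 with Ier3, Flot1, Tubb5 and Mdc1 (0.058). It had 0.02 ± 0.04 in Del8 and -0.56 ± 0.06 in WT (SD, n = 3 each). The bins of Rbfa on chromosome 18 (0.059) and of Gm39653 and Dytn on chromosome 1 (0.062) followed. Closest to the Nanog bin were those of Plekha6 on chromosome 1 (0.039), Tmem52 and Gnb1 on chromosome 4 (0.044) and Selenot on chromosome 3 (0.050). The Dppa3 profile thus had near matches on other chromosomes.

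Other genes of the members' pathways were read from the same limma fit, without the member bins. Over all 21874 bins the median difference of the score was 0.00062. For Gdf3, the list held ligands, receptors and effectors of Nodal signalling. Of 12 bins 7 rose, 2 fell and 3 did not pass, with a median of 0.14. Tdgf1, the Nodal co-receptor, had -0.24 ± 0.05 in Del8 and -0.49 ± 0.02 in WT, and its relative Cfc1 had -0.10 ± 0.02 in Del8 and -0.32 ± 0.10 in WT. Both rose, while the bins of the effector Smad3 (0.10 ± 0.0040 in Del8 and 0.22 ± 0.03 in WT) and its partner Foxh1 (-0.38 ± 0.04 in Del8 and -0.26 ± 0.01 in WT) fell (SD, n = 3 each).

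For Slc2a3, of 7 bins with other hexose transporter genes 3 rose, 2 fell and 2 did not pass, with a median of 0.05. The bin shared by the fructose transporter gene Slc2a5 and Slc2a7 had -0.39 ± 0.02 in Del8 and -0.68 ± 0.02 in WT. The bin of Slc2a6 had -0.48 ± 0.02 in Del8 and -0.16 ± 0.04 in WT, and that of the urate transporter gene Slc2a9 had -0.50 ± 0.02 in Del8 and -0.33 ± 0.01 in WT (SD, n = 3 each). Members of this family thus lay in bins that moved both ways. For Apobec1, of 3 bins with other deaminase genes 1 rose, that of Apobec2 (-0.28 ± 0.02 in Del8 and -0.37 ± 0.05 in WT, SD, n = 3 each), and those of Apobec3 and Apobec4 did not pass.

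For Nanog and Dppa3, the list of other pluripotency genes covered 16 bins. Of these 9 rose, 1 fell and 6 were not past the threshold, with a median of 0.11. Utf1 had the largest difference of these, with -0.015 ± 0.015 in Del8 and -0.40 ± 0.05 in WT. Pou5f1, which codes for Oct4, had -0.31 ± 0.06 in Del8 and -0.58 ± 0.03 in WT. Sall4, a zinc finger factor, had 0.07 ± 0.02 in Del8 and -0.20 ± 0.03 in WT (SD, n = 3 each). The only bin that fell was that of Sox2, the partner of Oct4 on the element shown for Nanog, with -0.36 ± 0.04 in Del8 and -0.27 ± 0.06 in WT (SD, n = 3 each), where the groups overlapped. Dppa3 is also known to act on the DNA methylation machinery. Of 8 bins of that list 7 rose, 0 fell and 1, that of Tdg, did not pass, with a median of 0.18. Tet3 had the largest difference of that list, with 0.10 ± 0.01 in Del8 and -0.24 ± 0.0047 in WT. Dnmt3a, a methyltransferase that sets new marks, had the smallest rise, with 0.19 ± 0.02 in Del8 and 0.12 ± 0.04 in WT (SD, n = 3 each). Nothing is called particular to any list from these counts, since 33.0% of all bins were called higher and 31.3% lower.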

How the data were processed

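The authors deposited 1 table per library of raw contact counts between 50 kb bins of the same chromosome, on build mm10, as the submitters' processing notes name it. Which aligner and which filters on reads or bins were used is not given in the sources used here. Groups and replicate numbers came from the titles.

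Within-bin counts were left out of maps and fits. A bin was usable if its row was present in all 6 libraries, a rule set after the tables were seen. Each chromosome's map was balanced by iterative correction (Python 3.11.15, numpy 2.4.6). Insulation scores needed 50% of the 500 kb square and were compared with limma 3.58.1 over all bins scored. Counts of bin pairs from 50 kb apart to the length of the locus with a mean of 10 or more were compared with edgeR's quasi-likelihood test (4.0.16), with offsets for library, chromosome and distance. Both used Benjamini-Hochberg adjustment over all features at 0.05 and no replicate block. DESeq2 1.42.0 was an alternative for the pairs. Fits were tested on simulated data; 94% of 200 bins moved by 0.3 were called in the insulation fit. Counts carry counting error, so pairs of few contacts are imprecise, and replicates were compared by SD.

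The genes, lists and rules were chosen with earlier results of these data known. Named were the 5 genes, genes of member bins and adjoining bins, genes at called pairs, the 3 bins most like the Dppa3 or Nanog bin, and the genes with the largest and smallest differences of each list, of which a few are given. Foxj2, C3ar1, Necap1, M6pr, Phc1, A2m and the Mug, Clec4 and Vmn2r genes were named after their values were seen, to say which bins were meant. Chromosome 6 compartments at 250 kb are not given, because the eigenvectors of single libraries correlated with that of the summed map at only -0.00089 to 0.884. Gene positions came from RefSeq, without strand, so a start is the lower coordinate. No pair of libraries was a copy of another (lowest chi-square per degree of freedom 1.46).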

Additional observations from a re-analysis of the deposited data

How the results depend on the processing

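Leaving out any single library kept the locus at 11 higher and 0 lower bins of 11. These fits called 29.7% to 32.7% of all bins higher and 27.4% to 30.8% lower. Over these fits the score difference ranged from 0.47 to 0.56 at the Apobec1 bin, from 0.54 to 0.66 at the Dppa3 bin and from 0.25 to 0.34 at the Nanog bin. Contact between the flanks differed by 0.289 to 0.320, within the lower flank by -0.028 to 0.0044 and within the upper flank by -0.027 to -0.0048. The pairs ranged from -0.152 to -0.050 for Apobec1 with Dppa3, from 0.231 to 0.362 for Dppa3 with Nanog and from 0.395 to 0.457 for Apobec1 with Nanog. Called pairs ranged from 0 to 2 higher and from 0 to 3 lower. Of all pairs, 0.357% to 0.649% were called higher and 0.351% to 0.637% lower. Without WT replicates 1 and 2, which leaves 1 WT library assumed to vary like Del8, the Dppa3 score difference was 0.50, between the flanks it was 0.271, within the lower and upper flank 0.036 and -0.038, Apobec1 with Nanog 0.503, and 0 pairs were called higher and 0 lower by edgeR.

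With a 250 kb square 8 of 15 locus bins were called higher and 2 lower, the M6pr and Phc1 bin and the bin above it. Over all bins 23.9% were called higher and 21.5% lower with that square. The Nanog bin, no longer called, differed by 0.12. Flanks of 250 kb gave 0.341 between, 0.095 within the lower and -0.103 within the upper flank. With a 1 Mb square, which could not be scored at the member bins, 0 of 8 were higher and 3 lower. Over all bins 36.6% were called higher and 34.4% lower with that square. The unbalanced score from present rows, added after seeing the data, gave 10 higher and 15 lower bins of 31, against 29.1% and 27.7% of all bins. Without balancing 10 of 11 bins were called higher and 0 lower, against 31.4% and 27.9% of all bins. The Nanog bin then differed by 0.41. Raw counts gave 0.207 between the flanks, -0.051 within the lower flank and 0.150 for Dppa3 with Nanog. Centred on boundaries, the score differences were 0.44, 0.52 and 0.21 at the Apobec1, Dppa3 and Nanog bins, 9 of 11 locus bins were higher, and over all bins 3705 were higher and 11355 lower, against 7228 and 6856.

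The looser screen (20 contacts or more) counts missing rows as zeros by construction. It called 0 of 38 locus bins by limma, as of all 34988 bins, with 2 locus bins higher and 0 lower at an unadjusted p under 0.05. The score differences were then 0.42, 0.51 and 0.18, the flank values 0.146 between, -0.465 lower and -0.254 upper, and the pairs -0.503 for Apobec1 with Dppa3, -0.235 for Dppa3 with Nanog and -0.022 for Apobec1 with Nanog, so the last pairs reversed. Pairs called higher were 5 and lower 0 with balancing offsets, 1 and 0 without a filter on counts, and 0 and 0 by DESeq2. TMM factors gave 2 and 3, against 1.00% and 0.946% of all pairs. Over all pairs DESeq2 called 268 higher and 387 lower, no filter 1831 and 1768, and the fit without WT replicates 1 and 2 440 and 468. Same-numbered libraries deviated together at correlations of 0.014, -0.015 and -0.019. None correlated best with its own number, so the numbers do not pair the samples. With the replicate block 11 bins were called higher and 0 lower, against 32.9% and 31.1% of all bins. It gave 2 higher and 1 lower pairs, against 0.839% and 0.803% of all pairs. Where no cause is named, the cause was not tested. The effect of depth on the calls was not tested.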

Other observations

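Every within-bin count of the deposited tables was even in all 6 libraries, with 0 odd values among 48606, 46724 and 41437 entries in Del8 replicates 1 to 3 and 28858, 28835 and 45760 in WT replicates 1 to 3. Counts between bins were odd in 7230183 of 10712619 entries in Del8 replicate 1 and in 3068764 of 4377162 in WT replicate 1. Within-bin values given for the member bins are therefore relative to the median bin of the same library. In the Dppa3 bin, the count divided by 2, taken as the number of pairs, was 228, 164 and 139 in Del8 replicates 1 to 3 and 143, 135 and 134 in WT replicates 1 to 3.

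The rows missing from the tables were not spread evenly over the locus. From base 123200001 to base 123800000, where the Vmn2r genes lie, no bin had a row in all 6 libraries. WT replicates 1 and 2 each lacked 17 of the 44 rows of the locus and WT replicate 3 lacked 7, against 7, 7 and 9 in Del8 replicates 1 to 3. The 6 Vmn2r genes of the locus therefore have no balanced score here.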
